A study of Mus musculus with 8 samples.

Results

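The 10 genes described here encode the β-adrenergic and cyclic AMP signalling pathway of the heart muscle cell: Adrb1, Gnas, Adcy5, Adcy6, Pde3a, Pde4b, Pde4d, Akap6, Prkaca and Prkar1a. CHD4 sites were built by merging the peaks of 4 ChIP-seq libraries wherever they overlapped by at least 1 bp. Sites that touched a member gene's body or the 10 kb on either side of it were kept, which gave 331 of 121267 sites. No site fell to 2 member genes. CHD4 is the ATPase that moves nucleosomes for the NuRD complex. TBX5, a DNA-binding protein of the T-box family, is needed for atrial gene expression.

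Whole right and left atria of mice with floxed Tbx5 alleles in every group were flash frozen for CHD4 ChIP-seq. On postnatal day 2 the mice had received AAV9:Nppa-Cre or AAV9:Nppa-EGFP. Going by the titles, Cre is taken here to belong to the 2 libraries titled TBX5 KO and EGFP to the 2 titled control. Nppa sequence drives both vectors and is active in atrial cardiomyocytes, so the deletion is directed to those cells, and the cell type is labelled as mixed. The age at collection and whether a library is 1 animal or a pool are not given in the labels, so the spread between replicates may be technical. The genotype and treatment fields name the groups opposite to the titles, and the treatment text names CHD4 as the deleted gene. Every direction below follows the titles, and no peak value can show which label is right. Peak lists hold no RNA values, so the tissue label was not checked against marker genes. In whole tissue, fewer cells with CHD4 at a site and less CHD4 there per cell cannot be told apart.

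Noradrenaline and adrenaline bind β-adrenergic receptors, which act through the stimulatory G protein on adenylyl cyclase to make cyclic AMP. Cyclic AMP releases the catalytic subunits of protein kinase A (PKA) from their regulatory subunits, and PKA then phosphorylates calcium channels, calcium pump regulators and sarcomere proteins, which speeds and strengthens the beat. Phosphodiesterases break cyclic AMP down, and anchoring proteins hold PKA and phosphodiesterases together at particular places in the cell.

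The TBX5 KO lists held 61173 and 69557 peaks and the control lists 99924 and 91520, so fewer sites were called in the TBX5 KO libraries over the whole genome too. A site is called control-only when it had a peak in each control library but no peak in a TBX5 KO library, and TBX5 KO-only in the opposite case. Over the genome, 24.9% of the 68137 sites called in both control libraries were control-only, and at protein-coding genes other than the members 24.2%. That share differed by place, with 7.22% within 1 kb of the end of a protein-coding gene, 31.1% elsewhere inside genes and 26.6% outside. It also differed by strength. Control rank is the mean percentile of a site's −log10 p within the 2 control lists, and in 3 equal tiers of it the control-only share was 51.2%, 20.5% and 3.17%, weakest first; inside genes it was 53.0%, 22.1% and 4.9%.

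At the member genes together, fewer CHD4 sites were called in the TBX5 KO libraries. With the lists as deposited, each of the 10 members had at least 1 control-only site and at least 1 site in all 4 libraries, as did 81.4% of genes with at least 5 sites in both control libraries. The control-only count was 0 at Adrb1, Prkaca and Prkar1a in lists of equal length, at Prkaca with −log10 q of at least 3, at Prkar1a with at least 5 and at Adrb1 without the 10 kb flanks. The TBX5 KO libraries had a peak at 100 and 129 of the member sites and the control libraries at 256 and 246, so the groups did not overlap. The means were 114.5 ± 20.5 sites in TBX5 KO and 251.0 ± 7.07 sites in control atria (SD, n = 2 each), a ratio of 0.456. Peaks at these sites covered 127.8 ± 22.4 kb in TBX5 KO and 295.4 ± 12.0 kb in control atria (SD, n = 2 each), a ratio of 0.433. Whole peak lists covered 47.6 and 57.5 Mb in TBX5 KO and 97.0 and 86.7 Mb in control libraries. Covered length was thus lower over the genome too, and the ratios of single genes below are to be read beside that. A two-sided exact permutation test over libraries gave p = 0.333 for both, the smallest value possible with 2 libraries a group, and 0.05 is out of reach for every gene below.

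**Figure D1:**
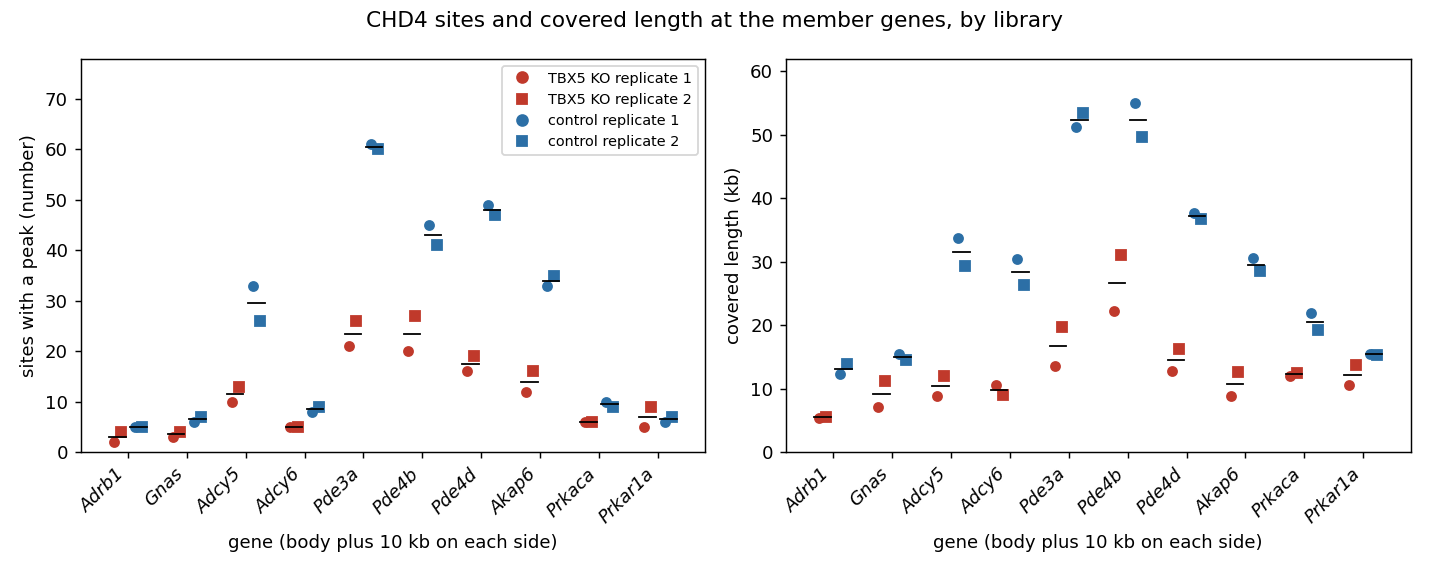
Number of CHD4 sites with a peak (left) and length covered by peaks in kb (right) at each member gene, with 1 point per library and a bar at each group mean. TBX5 KO points (red) lie below both control points (blue) at every gene in covered length and at every gene but Prkar1a in number of sites.

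Of the 187 member sites called in both control libraries, 64 were control-only (34.2%, 95% Wilson interval 27.8% to 41.3%, counting error only), 47 were called in 1 TBX5 KO library and 76 in all 4 (40.6%, against 55.8% over all sites). The control-only share was above the 24.9% of all sites. The interval takes sites as independent, which they are not, since 157 of the 187 lie at the 5 large genes. It is thus not a test of that difference. Most member sites lie inside genes. At the 166 member sites inside genes and away from gene ends, 63 were control-only (38.0%, against 31.1% over all such sites). It was 1 of 8 outside genes and 0 of 13 near gene ends, against 26.6% and 7.22% over all sites there. By tier of control rank, 49 of 77 weak member sites were control-only (63.6%), 13 of 57 in the middle tier (22.8%) and 2 of 53 in the strongest tier (3.77%). Of the member sites inside genes it was 48 of 75, 13 of 51 and 2 of 40 (64.0%, 25.5% and 5.0%). The middle and strongest tiers were thus near the background, and the weak tier stood above it. With each list reduced to the 61173 peaks of the shortest one, 19 of 114 member sites were control-only (16.7%), against 14.8% over all sites, so at equal list length the members were near the background. By gene these were 6 of 17 sites at Pde4d, 3 of 15 at Adcy5, 3 of 21 at Pde4b, 2 of 14 at Akap6, 2 of 22 at Pde3a, 2 of 7 at Adcy6 and 1 of 5 at Gnas, with none of 4 at Adrb1, 6 at Prkaca and 3 at Prkar1a. Without control replicate 1 the count was 130, without control replicate 2 it was 137 and without TBX5 KO replicate 2 it was 98, with shares of 47.8%, 50.6% and 52.1% against 36.9%, 40.6% and 37.9% over all sites. With 3 libraries the definition is easier to meet, in the members and in the background. By gene, leaving out 1 library gave counts of 1 to 3 at Adrb1 and Prkar1a, 1 to 4 at Gnas and Prkaca, 3 to 7 at Adcy6, 11 to 21 at Adcy5, 11 to 16 at Pde4b, 12 to 21 at Akap6, 17 to 33 at Pde3a and 19 to 33 at Pde4d.

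**Figure D2:**
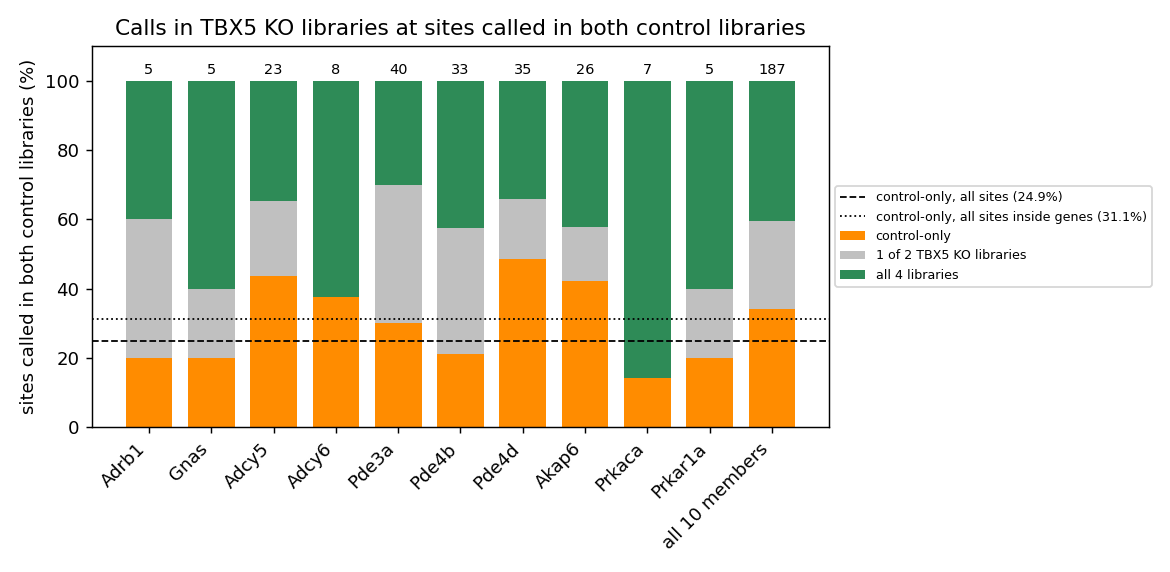
Share of sites called in both control libraries that were control-only, called in 1 TBX5 KO library or called in all 4, for each member gene and all together, with the number of sites above each bar. Control-only shares run between 14.3% at Prkaca and 48.6% at Pde4d, and the dashed and dotted lines mark 24.9% over all sites and 31.1% over sites inside genes.

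Beyond these totals, 9 of the 10 members had fewer sites in both TBX5 KO libraries than in either control library, and all 10 had less covered length. Of all protein-coding genes with a site 42.0% had fewer sites in this sense and 71.5% less covered length, and 75.8% of those with at least 5 sites in both control libraries had fewer sites. Such counts therefore say little about these members. The strongest site of a gene, as named below, is the one with the highest control rank. That choice favours a lower rank in TBX5 KO libraries and can also favour a smaller width. Values at these single sites are descriptions only.

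Adrb1, which encodes the main β-adrenergic receptor of heart muscle, is a short gene of 3.03 kb (mm10, chromosome 19, 56722117 to 56725150) whose whole body lay within 1 CHD4 site. Its strongest site, at chr19:56720174-56727897, was called in all 4 libraries and covered the promoter and both ends of the gene. Peaks there were 4559 and 3666 bp wide in TBX5 KO and 6859 and 6758 bp in control libraries, so both TBX5 KO peaks were narrower. The authors' fold over local background at that site was 4.79 and 4.37 within the TBX5 KO lists and 8.91 and 6.95 within the control lists. Of the 5 Adrb1 sites called in both control libraries, 1 was control-only, a weak upstream site at chr19:56717585-56718221 with a control rank of 30.0. It lies outside the gene body, which 1 of the 5 sites overlaps. Downstream, 2 sites of control rank 63.8 and 63.1 were called in TBX5 KO replicate 2 but not in replicate 1. In all, the TBX5 KO libraries had 2 and 4 of the 5 sites and the control libraries had 5 each, and peaks covered 5.33 and 5.60 kb in TBX5 KO and 12.3 and 14.0 kb in control libraries. Both groups were thus apart in covered length. The promoter that lies under the shared peak is shown because it carries the strongest CHD4 signal of the receptor gene; sequences here and below are RefSeq promoter windows of build GRCm38.p6, the assembly behind mm10, read 5′ to 3′ on the plus strand from 250 bases before a transcript start to 50 bases from it. Capitals mark motif letters: TGACG (the core of a cyclic AMP response element), GGTGTG (T-box core) or AGATAA (a site for factors of the GATA family), on either strand.
Adrb1 promoter (chr19:56721867-56722166): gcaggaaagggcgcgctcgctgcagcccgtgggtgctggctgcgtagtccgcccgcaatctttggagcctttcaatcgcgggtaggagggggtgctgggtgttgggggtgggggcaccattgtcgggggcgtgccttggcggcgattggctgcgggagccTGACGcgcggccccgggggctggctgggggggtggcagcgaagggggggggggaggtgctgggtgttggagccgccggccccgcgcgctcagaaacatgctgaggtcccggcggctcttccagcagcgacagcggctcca

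Gnas encodes the α subunit of the stimulatory G protein and is an imprinted locus with several alternative first exons (chromosome 2, 174284320 to 174346744). The strongest CHD4 peaks lay on its downstream promoters in both groups. The strongest site, chr2:174326773-174337508, was called in all 4 libraries. Its percentile among the 38043 sites called in all 4 libraries was 98.4 and 98.4 in TBX5 KO and 98.7 and 95.1 in control libraries, so the groups overlapped in rank. Peaks covered 5021 and 7898 bp of it in TBX5 KO and 9973 and 8446 bp in control libraries, which did not overlap. The most upstream of the 4 Gnas promoter windows had a peak in none of the libraries, and the other 3 had one in all 4. Over the whole locus TBX5 KO libraries had peaks at 3 and 4 sites, covering 7.13 and 11.2 kb, and control libraries at 6 and 7, covering 15.5 and 14.6 kb. The single control-only site of the 5 in both control libraries was a peak of 345 and 268 bp in control libraries at chr2:174312089-174312433, between the upstream and downstream promoters. The most downstream window, with a guanine and cytosine content of 81.7% and 40 CpG dinucleotides, lies under the strongest peak.
Gnas promoter 4 (chr2:174329756-174330055): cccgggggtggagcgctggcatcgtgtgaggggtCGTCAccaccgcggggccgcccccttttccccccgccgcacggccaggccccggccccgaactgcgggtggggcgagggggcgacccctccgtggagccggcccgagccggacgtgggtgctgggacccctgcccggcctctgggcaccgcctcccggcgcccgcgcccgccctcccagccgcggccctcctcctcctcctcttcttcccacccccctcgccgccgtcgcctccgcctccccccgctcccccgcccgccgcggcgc

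Together with Pde3a, the adenylyl cyclase genes had the lowest ratios of covered length. Adcy5 and Adcy6 encode the calcium-inhibited cyclases that predominate in heart muscle. At Adcy5 (chromosome 16, 35154494 to 35305743) the TBX5 KO libraries had peaks at 10 and 13 sites and the control libraries at 33 and 26. Peaks covered 8.88 and 11.9 kb in TBX5 KO and 33.7 and 29.3 kb in control libraries, a ratio of means of 0.330. Both measures were lower in each TBX5 KO library than in either control library.

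Control-only sites made up 10 of the 23 Adcy5 sites in both control libraries (43.5%), and 4 of them followed one another over 9.89 kb just downstream of the promoter (chr16:35159988-35169879). All 10 had a control rank of at most 68.5. None of the 6 sites in the strongest tier was control-only. The strongest, chr16:35213989-35217387 inside the gene, measured 622 and 750 bp in TBX5 KO and 2898 and 3053 bp in control libraries. Its percentile among sites of all 4 libraries was 42.1 and 11.9 in TBX5 KO and 77.6 and 77.2 in control libraries. Both TBX5 KO libraries thus ranked it below both control libraries, as did 22.1% of all sites called in all 4. This site was picked for its high control rank, which favours such a drop. The strongest control-only site lay further downstream at chr16:35226057-35227422. The promoter kept a peak in all 4 libraries, with a percentile within the same set of 39.7 and 52.0 in TBX5 KO and 63.8 and 62.9 in control libraries. Its window holds none of the 3 motifs and 44 CpG dinucleotides.
Adcy5 promoter (chr16:35154614-35154913): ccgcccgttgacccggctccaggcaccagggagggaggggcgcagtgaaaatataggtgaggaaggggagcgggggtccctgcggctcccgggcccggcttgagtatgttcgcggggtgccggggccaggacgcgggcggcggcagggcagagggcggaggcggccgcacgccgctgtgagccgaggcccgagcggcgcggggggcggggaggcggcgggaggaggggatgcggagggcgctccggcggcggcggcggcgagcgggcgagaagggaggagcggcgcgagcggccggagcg

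Adcy6 (chromosome 15, 98589978 to 98610287) had fewer but broad sites. TBX5 KO libraries had peaks at 5 and 5 sites and control libraries at 8 and 9, and peaks covered 10.5 and 9.04 kb in TBX5 KO and 30.5 and 26.4 kb in control libraries. A site covering the upper end of the gene, chr15:98599627-98610652, was kept, with 7829 and 7061 bp in TBX5 KO and 10993 and 10679 bp in control libraries. The neighbouring site chr15:98586670-98595053 was called in all 4 but had the lowest width ratio of the 76 member sites called in all 4, with 831 and 266 bp in TBX5 KO and 7823 and 7234 bp in control libraries. Over the 5 Adcy6 sites called in all 4 libraries the median ratio of TBX5 KO to control width was 0.312, and all 5 were narrower in both TBX5 KO libraries. Control-only calls fell on 3 of 8 sites, the strongest at chr15:98581862-98583765. This site and 3 of the others lie on the body of 4930415O20Rik, the neighbouring gene, so they cannot be given to Adcy6 alone. Of the 5 sites called in all 4 libraries, only chr15:98599627-98610652 and chr15:98586670-98595053 touch the Adcy6 body, and the latter also touches 4930415O20Rik.

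Pde3a, Pde4b and Pde4d encode cyclic AMP phosphodiesterases. They are long genes, and most of their sites were intragenic. Pde3a encodes the phosphodiesterase that cyclic GMP inhibits, and it had the most CHD4 sites of the members (chromosome 6, 141249269 to 141506862). The TBX5 KO libraries had peaks at 21 and 26 sites, covering 13.6 and 19.8 kb, and the control libraries at 61 and 60, covering 51.2 and 53.4 kb. Of the 84 Pde3a sites, 40 were called in only 1 library. Among the 40 present in both control libraries 12 were control-only (30.0%), 16 had a peak in 1 TBX5 KO library and 12 in all 4. A call in a single TBX5 KO library was thus more common at Pde3a than either full pattern.

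The strongest Pde3a site, chr6:141331478-141334043, was kept in all 4 libraries, with 1517 and 1960 bp in TBX5 KO and 2274 and 2374 bp in control libraries. At the lower end of the gene, the site chr6:141248058-141251472 had percentiles among sites of all 4 libraries of 80.1 and 80.2 in TBX5 KO and 78.5 and 82.2 in control libraries, so the groups overlapped. The strongest control-only site of all members lay inside Pde3a at chr6:141417628-141419861. Control peaks there were 1876 and 2234 bp wide with a control rank of 86.7, within the top 10.7% of the first and 15.9% of the second control list.

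Pde4b (chromosome 4, 102087332 to 102607275) had a lower control-only share, 7 of 33 sites (21.2%), and that share was uneven along the gene. Peaks were called at 20 and 27 sites in TBX5 KO and 45 and 41 sites in control libraries, covering 22.2 and 31.1 kb in TBX5 KO and 55.0 and 49.6 kb in control libraries. The most crowded 100 kb of the gene, chr4:102493118-102592363, held 16 of the 33 sites. None of the 16 was control-only and 12 had a peak in every library, so all 7 control-only sites lay at the other 17. Of these 7, 3 followed one another over 16.1 kb at chr4:102398520-102414608, and the strongest of them was chr4:102408607-102409474 with a control rank of 70.9. The strongest site, chr4:102508917-102513346, measured 2216 and 3799 bp in TBX5 KO and 4050 and 3337 bp in control libraries, and the groups overlapped.

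RefSeq gives 4 Pde4b promoter windows, for transcripts with different starts. The most upstream, promoter 1, had no peak in any library. Promoters 2 and 4 had one in all 4, and promoter 3 had a narrow peak in TBX5 KO replicate 2 and control replicate 1 alone. Promoter 2 lies in a broad site at chr4:102565992-102578260, covered over 8738 and 7126 bp in TBX5 KO and 11213 and 10666 bp in control libraries. It is shown because it carries the broadest Pde4b site although it is poor in CpG, with 2 such dinucleotides and none of the 3 motifs.
Pde4b promoter 2 (chr4:102569810-102570109): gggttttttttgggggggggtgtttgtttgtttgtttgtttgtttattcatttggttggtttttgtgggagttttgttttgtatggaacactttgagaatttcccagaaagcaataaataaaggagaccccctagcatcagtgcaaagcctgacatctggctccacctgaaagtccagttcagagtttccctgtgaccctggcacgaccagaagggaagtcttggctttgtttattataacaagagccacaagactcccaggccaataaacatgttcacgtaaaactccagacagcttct

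Pde4d encodes a phosphodiesterase found with β-adrenergic receptors and with the calcium release channel. It is the longest member (1302 kb; chromosome 13, 108654177 to 109955969) and had the highest control-only share, 17 of 35 sites (48.6%). Peaks were called at 16 and 19 sites in TBX5 KO libraries and at 49 and 47 in control libraries, covering 12.8 and 16.2 kb in TBX5 KO and 37.7 and 36.7 kb in control libraries. Its sites had the lowest median control rank of the members, 44.7 against 53.7 over all members. Its control-only sites were not all weak ones, since 5 of its 9 sites in the middle tier were control-only (55.6%, against 20.5% over the genome). Without Pde4d the other members had 47 control-only sites of 152 (30.9%).

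Control-only Pde4d sites ran from chr13:109182782-109183315 to near the upper end, and the longest unbroken run, 4 sites over 15.1 kb, was at chr13:109917821-109932887. The most crowded stretch around it, chr13:109899611-109932887, held 10 sites, 6 of them control-only and 2 shared by all libraries. The strongest control-only site, chr13:109788698-109789630, was 587 and 901 bp wide in control libraries, with a control rank of 75.0. The strongest site, chr13:109821154-109824206, was kept at 1767 and 2131 bp in TBX5 KO and 2451 and 2817 bp in control libraries. The listed Pde4d promoter at the lower end of the gene had a peak in control replicate 2 only, of 306 bp.

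**Figure D3:**
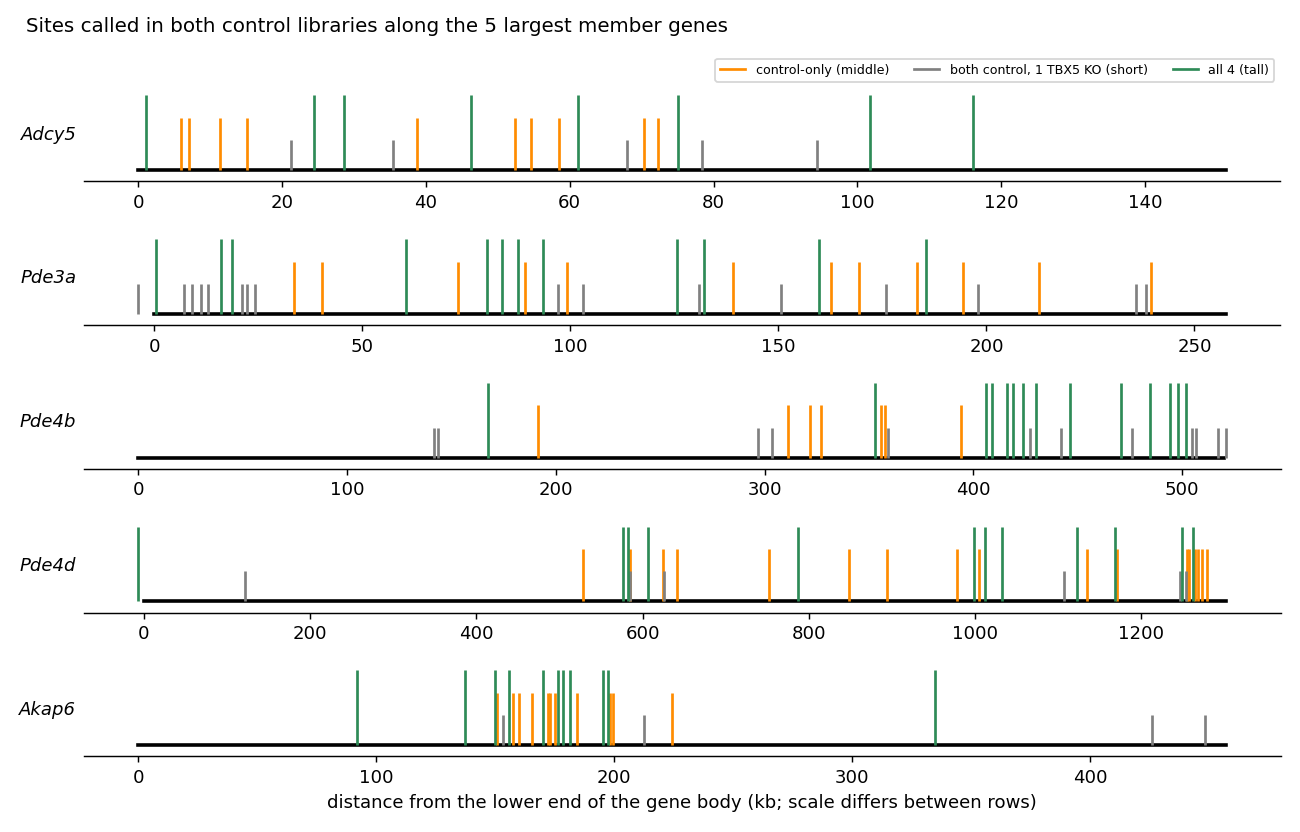
Sites called in both control libraries along the 5 largest member genes, by distance in kb from the lower end of the gene body, with the height and colour of a mark giving the calls in TBX5 KO libraries. In Pde4b the 7 control-only sites lie outside the crowded stretch of 16 sites, while in Akap6 all 11 lie within 88.7 kb.

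Akap6 encodes mAKAP, a scaffold at the nuclear envelope of cardiomyocytes that binds PKA and a phosphodiesterase. The gene spans 457 kb (chromosome 12, 52698588 to 53155568), but 22 of its 26 sites in both control libraries, and all 11 control-only ones, lay in 88.7 kb at chr12:52834781-52923506. Peaks were called at 12 and 16 sites in TBX5 KO and 33 and 35 in control libraries, covering 8.85 and 12.7 kb in TBX5 KO and 30.5 and 28.5 kb in control libraries. Control-only sites and sites called in all 4 were interspersed there, and those called in all 4 had the higher control ranks. The 11 control-only sites had a median control rank of 28.5 and a highest of 58.5, at chr12:52855929-52856480, while the 11 sites in all 4 libraries ranked at least 67.4. The strongest Akap6 site, chr12:52875590-52878298, measured 571 and 1019 bp in TBX5 KO and 2522 and 2431 bp in control libraries. Its percentile among sites of all 4 libraries was 39.9 and 26.4 in TBX5 KO and 82.1 and 92.9 in control libraries, so it ranked lower in both TBX5 KO libraries. It too was picked for its high control rank, which favours such a drop. The listed Akap6 promoter had no peak in any library.

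Prkaca, which encodes the main catalytic subunit of PKA in heart, had the lowest control-only share, 1 of 7 sites (14.3%; chromosome 8, 83972978 to 83996444). TBX5 KO libraries had peaks at 6 and 6 sites and control libraries at 10 and 9, and peaks covered 12.1 and 12.4 kb in TBX5 KO and 22.0 and 19.2 kb in control libraries. All 4 libraries had 6 of the 7 sites found in both control libraries, and the control-only one, chr8:83989348-83989859, had a control rank of 15.3. The member sites with the 2 highest control ranks were both here. At the promoter site chr8:83971323-83974729 the percentile among sites of all 4 libraries was 99.0 and 99.4 in TBX5 KO and 97.6 and 99.1 in control libraries. At the other, chr8:83995929-83997992, it was 94.2 and 98.7 in TBX5 KO and 99.5 and 98.6 in control libraries, with widths of 2041 and 1970 bp in TBX5 KO and 2030 and 1976 bp in control libraries. The groups overlapped in rank at both sites and in width at the last. The promoter site was narrower in TBX5 KO libraries, with 2267 and 2342 bp against 3229 and 3018 bp in control libraries. The site chr8:83995929-83997992 and 3 more lie on the neighbouring genes Samd1, 1700067K01Rik or Asf1b. Of sites touching the gene body, 1 of 4 was control-only at Prkaca. The share was lower at Adrb1 (0 of 1), Gnas (1 of 5) and Pde4b (7 of 32). The lowest share thus depended on the flanks and rests on 1 site.

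The 2 Prkaca promoter windows differed. The upstream one had a peak in all 4 libraries. The downstream one had a peak in both control libraries, of 3416 and 720 bp, and in neither TBX5 KO library, and it was the single member window of 20 with this pattern. Of all promoter windows with a peak in both control libraries, 3.7% had no peak in either TBX5 KO library. The site around that window, merged from neighbouring peaks, was itself called in all 4 libraries, so this difference lies within a shared site. The upstream window holds TGACG at 2 places and 31 CpG dinucleotides, and the downstream one has no match and 2 CpG dinucleotides.
Prkaca promoter 1 (chr8:83972728-83973027): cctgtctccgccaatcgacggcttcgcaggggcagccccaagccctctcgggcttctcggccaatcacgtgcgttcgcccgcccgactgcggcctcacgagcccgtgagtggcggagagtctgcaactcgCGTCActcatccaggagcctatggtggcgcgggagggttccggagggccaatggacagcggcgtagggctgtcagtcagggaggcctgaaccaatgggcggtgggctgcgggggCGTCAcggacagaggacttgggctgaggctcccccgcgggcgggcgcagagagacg
Prkaca promoter 2 (chr8:83976633-83976932): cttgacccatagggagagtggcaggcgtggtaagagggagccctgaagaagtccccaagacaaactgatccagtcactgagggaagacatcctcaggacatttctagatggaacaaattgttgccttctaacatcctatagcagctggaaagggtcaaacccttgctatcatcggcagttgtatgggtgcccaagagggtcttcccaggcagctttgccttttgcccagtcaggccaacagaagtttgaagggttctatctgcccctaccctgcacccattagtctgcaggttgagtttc

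Prkar1a, which encodes the type I regulatory subunit that holds the PKA catalytic subunit inactive, was the member least different between groups (chromosome 11, 109649023 to 109669663). TBX5 KO libraries had peaks at 5 and 9 sites and control libraries at 6 and 7, so the groups overlapped (exact permutation test, p = 1.0). Covered length was 10.6 and 13.7 kb in TBX5 KO and 15.5 and 15.4 kb in control libraries, a ratio of 0.787, the highest of the members. The single control-only site, chr11:109656347-109657511, had a control rank of 20.6, and of its 5 sites present in both control libraries 3 had a peak in every library. The strongest, chr11:109641271-109642952, lies upstream of the gene and measured 1158 and 1263 bp in TBX5 KO and 1682 and 1521 bp in control libraries. The promoter site, chr11:109648227-109654223, covers all 6 listed promoter windows and had percentiles of 79.8 and 87.9 in TBX5 KO and 84.9 and 72.7 in control libraries, which overlapped.

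Prkar1a also had the single TBX5 KO-only site of the members, chr11:109675644-109676007. It lay on the body of the neighbour Fam20a, with peaks of 232 and 324 bp that ranked 61050 of 61173 and 60059 of 69557 in the TBX5 KO lists. With 78 member sites called in both TBX5 KO libraries this is 1.28%, against 1.91% over all sites. It rests on the libraries chosen, with 10 such member sites without TBX5 KO replicate 1, 8 without TBX5 KO replicate 2, 2 without either control replicate and 9 when peaks were joined by their summits. Prkar1a promoter 5 is shown for its 3 matches to TGACG, 2 of which lie on opposite strands and overlap. Promoter 4 overlaps this window and holds the same overlapping pair.
Prkar1a promoter 5 (chr11:109650699-109650998): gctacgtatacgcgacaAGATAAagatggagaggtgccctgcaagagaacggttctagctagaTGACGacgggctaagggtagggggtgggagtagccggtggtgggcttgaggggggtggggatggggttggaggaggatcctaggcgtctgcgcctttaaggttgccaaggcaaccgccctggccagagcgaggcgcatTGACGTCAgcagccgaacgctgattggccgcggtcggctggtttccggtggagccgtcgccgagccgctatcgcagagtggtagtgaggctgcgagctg

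Among the 20 promoter windows of the 8 members that the RefSeq table lists, some of which overlap, 9 held TGACG on either strand, against 20.8% of the 32817 RefSeq windows. The T-box core GGTGTG was in 2, against 19.1%, and AGATAA in 4, against 11.2%. Overlapping windows repeat the same letters, so some matches are counted more than once. Gnas promoters 2 and 3 share the same TGACG match. Prkar1a promoters 4 and 5 share their TGACG matches and their AGATAA match. The 2 windows with the T-box core were Pde4b promoter 1, with no peak in any library, and Prkar1a promoter 4, with a peak in all 4. Matches of short letters are descriptions of the windows and are not binding sites. Of the 15 windows with a peak in both control libraries 14 had one in all 4, against 90.7% over all such RefSeq windows. These windows are not separate observations. All Prkar1a windows lie under the same site, and Gnas promoters 2, 3 and 4 lie within another. Of the 20 windows 3 had no peak.

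**Figure D4:**
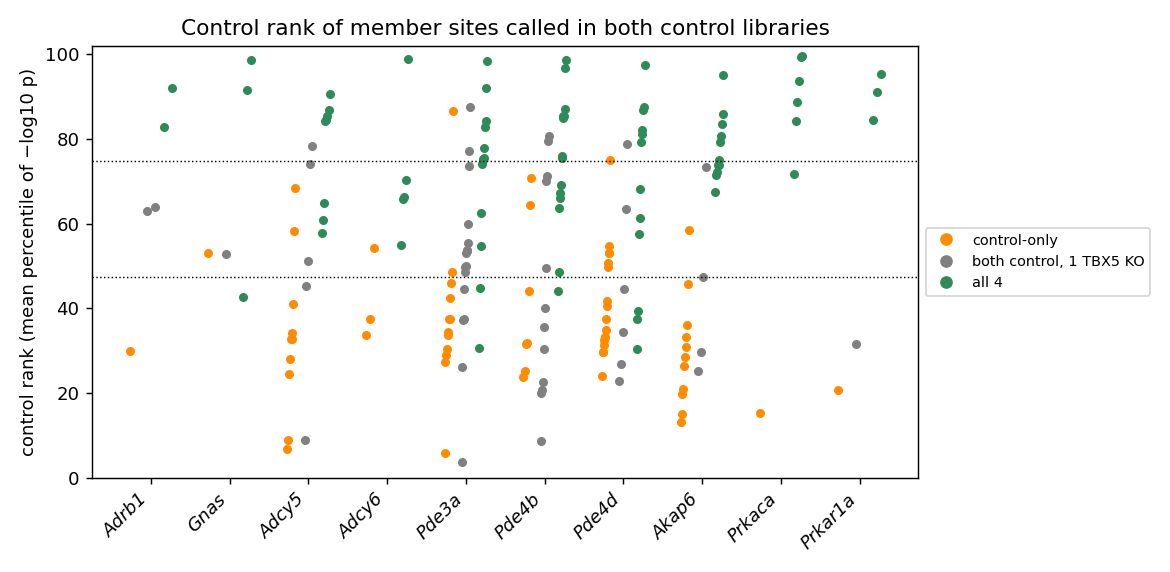
Control rank, the mean percentile of −log10 p in the 2 control lists, of each member site called in both control libraries, by gene and calls in TBX5 KO libraries, with dotted lines at the bounds of the 3 tiers (47.3 and 74.8). Control-only sites lie mostly in the lowest tier, and the 2 in the highest tier belong to Pde3a and Pde4d.

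Sites that kept their call were narrower in TBX5 KO libraries, as were sites over the genome. At the 76 member sites called in all 4 libraries the median width was 810.5 and 996.5 bp in TBX5 KO and 1878 and 1754 bp in control libraries. Over all 38043 such sites it was 786 and 908 bp in TBX5 KO and 1257 and 1142 bp in control libraries, so the member median was above that of all sites in each library. The median ratio of TBX5 KO to control width was 0.641 at the members (−0.64 on the log2 scale) and 0.747 over all sites (−0.42). For sites inside genes the ratio was 0.602 at the members and 0.701 over all sites. At 55 of the 76 (72.4%) both TBX5 KO peaks were narrower than both control peaks, against 57.3% over all sites, and at 0 both were wider. Inside genes it was 41 of 60 (68.3%), against 58.7%. By gene the median ratio was lowest at Adcy6 (0.312), Adcy5 (0.531) and Akap6 (0.540) and highest at Prkar1a (0.775). The Adcy6 value rests mostly on sites outside the gene body.

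In rank among those common sites, members were lower in the TBX5 KO libraries more often than higher. A site's difference is its mean TBX5 KO percentile minus its mean control percentile, and the median over member sites was −5.20 percentage points, against 0.816 over all sites. For sites inside genes the median was −5.57 at the members and −0.191 over all sites. At 32 of 76 sites (42.1%) both TBX5 KO libraries ranked the site below both control libraries, against 22.1% over all sites, and at 10 (13.2%) both ranked it above, against 25.2%. For the 60 member sites inside genes the lower count was 25 (41.7%), against 25.5% of all sites inside genes, and the higher count 10 (16.7%), against 22.6%. Adrb1 (−20.9, 2 sites), Akap6 (−19.4, 11 sites), Adcy5 (−16.8, 8 sites) and Adcy6 (−10.7, 5 sites) had the lowest medians. Gnas (0.808, 3 sites), Pde3a (0.748, 12 sites) and Prkar1a (2.61, 3 sites) were close to the median of all sites. Pde4b, Pde4d and Prkaca lay between, at −3.69, −5.57 and −2.05. The member median depended on the setting, with −3.00 at −log10 q of at least 3, −2.44 without TBX5 KO replicate 1 and −3.18 without control replicate 2, and sites of 1 gene are not replicates.

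**Figure D5:**
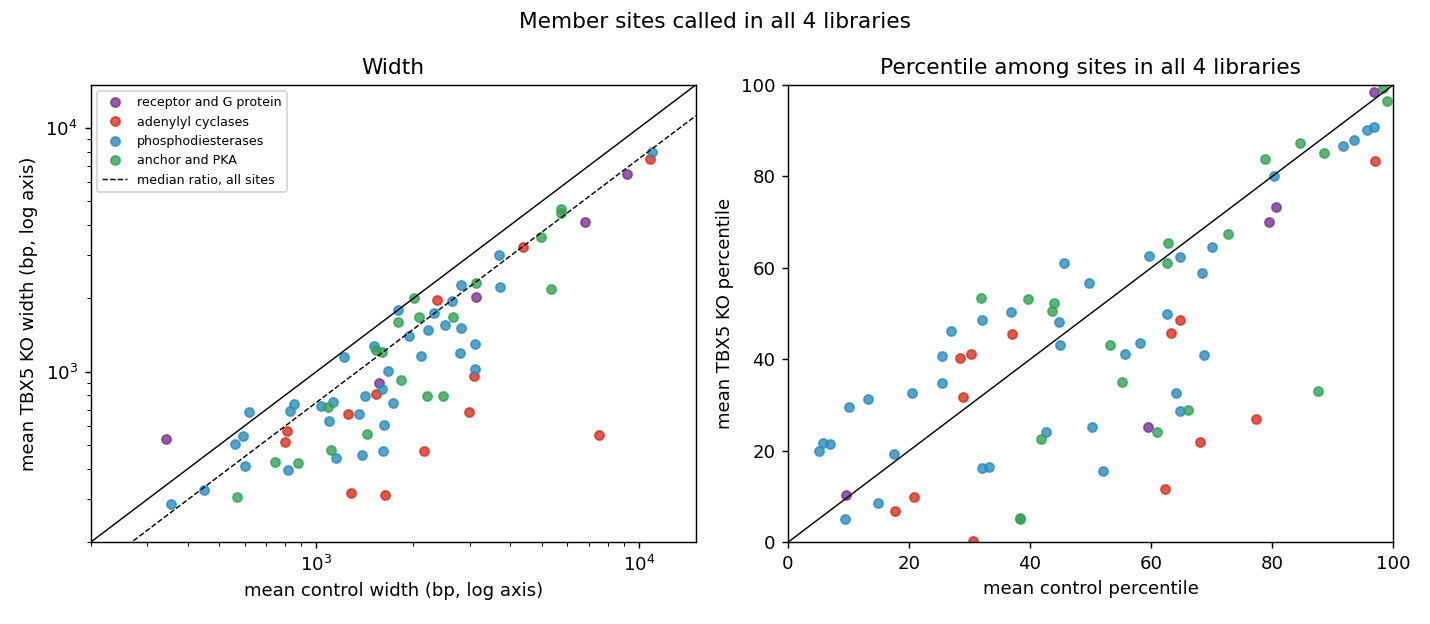
Mean TBX5 KO against mean control width in bp (left, log axes) and percentile among the sites called in all 4 libraries (right) for the 76 member sites called in all 4, coloured by role, with the solid line at equality. Most points lie under equality in width, and in rank the sites farthest below it belong to Akap6 and Adcy5 (differences down to −54.3 and −50.7 percentage points).

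Of 58 other genes of the pathway, taken from textbook knowledge, sites were control-only less often than at the members, with the difference not tested. The sets were not matched for place or control rank, with which the share varies. Median control rank was 61.8 at these genes and 53.7 at the members, so the shares do not compare like sites. They had 84 control-only sites of 427 (19.7%), against 24.9% over all sites, and 37 genes had at least 1 control-only site. There were 6 TBX5 KO-only sites, 2.21% of those called in both TBX5 KO libraries, against 1.91% over all sites. By role, leaving out receptors with 1 site in all, the control-only count was 4 of 59 at receptor kinases and arrestins (6.78%), 5 of 41 at cyclic AMP-responsive factors (12.2%), 7 of 47 at PKA subunits and inhibitors (14.9%) and 7 of 41 at the other adenylyl cyclases (17.1%). It was 6 of 25 at G protein subunits (24.0%), 22 of 87 at the other phosphodiesterases (25.3%), 23 of 90 at the other anchoring proteins (25.6%) and 10 of 36 at cyclic AMP effectors other than PKA (27.8%). Single genes weighed on these shares, in either direction. Akap13 held 18 of the 23 control-only anchoring sites, and without it the other anchoring proteins had 5 of 34 (14.7%). Rapgef4 held 7 of the 10 at effectors, and without it there were 3 of 20 (15.0%). Akap13 and Rapgef4 were singled out after their values were seen. Each had the most sites of its role, and without the gene with the most sites the share of each other role above was higher. It became 10.8% at receptor kinases and arrestins without Grk5, 23.3% at the other cyclases without Adcy7 and 29.4% at G protein subunits without Gnb1. It became 28.1% at the other phosphodiesterases without Pde7b, 18.5% at PKA subunits and inhibitors without Pkig and 13.6% at cyclic AMP-responsive factors without Crtc3.

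Among genes with at least 5 sites in both control libraries, the highest shares were at Pde1c (5 of 8 sites), Rapgef4 (7 of 16), Adcy1 (3 of 7), and Akap11 and Atf1 (2 of 5 each). Pde1c encodes a calcium-calmodulin-stimulated phosphodiesterase and Rapgef4 the cyclic AMP-activated exchange factor EPAC2. Of 34 such genes 8 had no control-only site: Grk5 (0 of 22), Adcy7 (0 of 11), Akap7 (0 of 7), Crtc1, Crtc2, Grk2 and Grk6 (0 of 6 each) and Pde4a (0 of 5). Grk5 encodes a kinase that phosphorylates activated β-adrenergic receptors, and its sites lay close to the median control rank of the genome, 62.5 against 61.4. Peaks were called at 24 and 41 Grk5 sites in TBX5 KO and 35 and 36 in control libraries, so the groups overlapped. The 6 TBX5 KO-only sites of the list lay 1 each at Adcy7, Adcy9, Pde10a, Pkig, Akap7 and Akap13.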

How the data were processed

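CHD4 ChIP-seq peak lists of 2 TBX5 KO and 2 control libraries were used, and the 4 input libraries were not used here on their own. Per the submitters' processing notes, MACS2 and DiffBind were used with build mm10, and the aligner, tool versions, filtering of reads and peak-calling options were not given in the sources used here. A list comes from 1 library. The authors' fold is a ratio of a peak's pileup to its local background. The authors' peak caller also gave −log10 p and −log10 q, whose lowest value was 1.30 to 1.31 for q. The deposited score is 10 times −log10 q without its decimals. These values were used within a list alone, for description, order and filtering. The deposited summit position was used where peaks were joined by summits. The lists give no read totals, so depth is unknown.

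Peaks were merged and assigned with Python 3.11.15, pandas 2.3.3 and numpy 2.4.6, and the pattern calling was tested on simulated data. Gene positions came from the RefSeq table of GRCm38.p6, which gives gene ends without exons, so exons, introns and UTRs are not named. All 10 members and all 58 other pathway genes were in it, and 8 members had promoter windows. A site's width in a library is the summed length of its peaks there, and its rank rests on its strongest peak. Ranks were compared only over sites called in all 4 libraries, since lists differ in length. Groups were tested over libraries by exact permutation (two-sided), and shares of sites are described beside the same share over all sites, without a test. All 10 members were named, with the strongest site, the strongest control-only site and each TBX5 KO-only site, and of the other pathway genes the 4 highest and 4 lowest shares, with genes tied with them, and those with TBX5 KO-only sites. The gene with the most sites of a role was named too. Further sites, described for a promoter, a large change in width or a run, were chosen after their values were seen. Members and lists were chosen with earlier results of these data known. The labels name no batch.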

Additional observations from a re-analysis of the deposited data

How the results depend on the processing

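The direction of sites called per library (−136.5, TBX5 KO minus control) and covered length (−167.6 kb) held under every alternative except exchanged groups. Both differences were smaller in lists of equal length, at −39.0 sites and −113.1 kb. With the groups exchanged, as the genotype and treatment labels have them, these were 136.5 sites and 167.6 kb, the width change was 0.64 on the log2 scale and the rank difference 5.20, with 1 control-only site (1.28%), 64 TBX5 KO-only sites and a share at the other pathway genes of 2.21%. In lists of equal length there were 19 control-only sites (16.7%) and 3 TBX5 KO-only sites. The share was 9.43% at the other pathway genes, against 14.8% over all sites. At −log10 q of at least 5 there were 0 TBX5 KO-only sites and 24.4% at the other pathway genes, against 29.1% over all sites. At least 3 gave a rank difference of −3.00. TBX5 KO-only sites numbered 2 with an overlap of 50% of the shorter peak, 9 by summits within 250 bp, 0 without the 10 kb flanks and 0 with the nearest gene, and the width change was −0.73 by overlap and by summits. Without 1 library each, control-only sites ranged over 77 to 137 (41.0% to 52.1%) and TBX5 KO-only sites over 2 to 10. The width change ranged over −0.82 to −0.58 and the rank difference over −3.99 to −2.44. The pathway share ranged over 27.4% to 37.3%, against 31.3% to 40.6% over all sites. With 3 libraries each pattern is easier to meet. Shared replicate numbers are not stated to mark a litter, batch or day, and with 2 pairs they were not taken as pairs. With the replicate block the differences were the same and the exact sign-flip p = 0.5, the smallest 2 pairs allow, and a mean of 149 control sites per pair had no TBX5 KO call (64.5% and 54.1%, against 52.1% and 42.0% over all sites). Without Pde4d, chosen after seeing the data, 47 sites (30.9%) were control-only. The cause of these shifts was not tested. Calls near the threshold are limited by a depth the lists do not give.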
